A study of Mus musculus with 12 samples.

Results

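The comparison described here is the loss of LSD1 in marginal zone B cells made in culture. It set the 3 libraries labelled eMZB_KO against the 3 labelled eMZB_WT, which together were 6 of the 12 libraries of the series, and it was read across all 9842 genes of the deposited table. All cells came from spleens of female C57BL/6J mice. Transitional B cells were enriched with magnets from wild-type mice or from mice labelled LSD1 knockout, cultured for 3 days in the presence of BAFF, which B cells need to survive, and of DL1, a ligand of Notch, and then sorted as eMZB, marginal zone B cells derived ex vivo. The sort took cells positive for B220, CD1d and CD21 and without Thy1.1, F4/80 or CD11b, and RNA of 2000 cells made each library. The other 6 libraries, 3 of TrB_KO and 3 of TrB_WT, held transitional B cells sorted from the spleen as positive for B220 and CD93 without stimulation. They serve below to show where the response of the cultured cells differed. These libraries also entered the scaling and the estimate of spread behind the test of eMZB_KO against eMZB_WT. No source used here gives the deleted part of the gene, the Cre driver if any, the age of the mice or whether mice were pooled. Nothing in the labels says whether replicates were separate animals, so p-values rest on a spread between libraries that could be technical alone.

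LSD1, encoded by Kdm1a, is an enzyme that takes methyl groups off the tail of histone H3. It works in the CoREST complex together with histone deacetylases, and DNA-binding repressors such as GFI1 and Blimp-1 can bring that complex to promoters and enhancers, so the enzyme is best known for holding genes silent. Marginal zone B cells sit at the border of the white pulp of the spleen, carry much CD21 and CD1d, answer blood-borne antigens quickly, and need Notch2 signals to form; transitional B cells are their newly arrived precursors.

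Values are FPKM, read counts corrected for gene length and for library depth, divided by 1 factor per library (1.03 to 1.56 in the 6 eMZB libraries) and called scaled FPKM. Levels can therefore be read between genes per length. Changes are log2(scaled FPKM + 1) in eMZB_KO minus eMZB_WT with the standard error (SE) of a limma fit, which understates the change of low genes, and a gene is called where its Benjamini-Hochberg adjusted p over all 9842 genes was under 0.05. The eMZB libraries rested on 7.24 to 19.35 M reads, of which 2.01 to 6.82 M lay in the listed genes, and replicates correlated across genes with r of 0.975 to 0.986. Among the transitional libraries TrB_KO replicate 3 stood apart, with a factor of 2.14 and 285 listed genes at 0. These are bulk samples, so fewer cells with a transcript and less of it per cell cannot be told apart.

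Kdm1a (Entrez 99982) on chromosome 4 checks the labels. Wild-type libraries gave scaled FPKM of 7.53, 8.63 and 4.68, the last from the library labelled eMZB_WT replicate 3, and knockout libraries gave 2.65, 2.53 and 2.66. The groups did not overlap, the knockout libraries lay close together, and the wild-type library with the low value stood between the others and the knockouts. On the log2 scale Kdm1a differed by -1.10 (SE 0.26; adjusted p = 0.148 in limma), and an exact two-sided permutation test over the 6 libraries gave p = 0.1, the smallest it can give. Kdm1a was thus not called, and reads from exons outside a deleted part would still count toward its value. With eMZB_WT replicate 3 left out the log2 change was -1.33 (adjusted p = 0.0957 in limma). Of the 14 listed genes of LSD1 and its CoREST partners, 0 were called, and their median change was 0.02. Kdm1b, the other histone demethylase of the family, averaged 3.91 ± 0.311 (SD, n = 3) in wild type against 2.79 ± 0.346 in knockout (adjusted p = 0.921), and Gfi1 had 0.923 ± 0.470 and 1.48 ± 0.172.

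The place of eMZB_WT replicate 3 was also read over the genes called in this comparison. Its median offset from the other wild-type libraries toward eMZB_KO was 0.04 on the log2 scale, with 24 of 40 genes on that side, against offsets of 0.01 (20 genes) for replicate 1 and -0.02 (18 genes) for replicate 2 and a knockout difference of 0.84. These genes were called with that library in the fit, and the groups do not overlap in any of them. Their selection thus favoured a small offset, which cannot tell whether the library is of its stated genotype. Over the 32 genes called in TrB_KO against TrB_WT and not here, its offset in the direction of the TrB change was -0.025. Of these, 11 were above 0, and the knockout difference there was 0.13. Results are given with the library under its label, and calls made without it are named below.

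Between eMZB_KO and eMZB_WT few genes were called, and most of them were higher in eMZB_KO. In limma 40 of 9842 genes were called, 0.406% of the table, and 33 of them were higher in eMZB_KO (0.335%) and 7 lower (0.0711%). The 33 risen genes had a median level of 1.81 scaled FPKM in eMZB_WT, against 4.28 for all genes. Of these 33, 9 averaged under 1 there, and the 7 that fell had a median of 14.8. Listed genes reached 1 FPKM in at least 3 libraries, so a gene low in eMZB_WT could be listed through eMZB_KO. Genes as low that did not rise may be absent, and a call as higher itself favours low wild-type values. The low level of the risen genes is thus partly set by the filter and the call. In 21 risen genes the mean in eMZB_KO was over 2 times that in eMZB_WT. All 40 had no overlap between the 6 libraries, an arrangement found in 1813 genes or 18.4% of the table, and 37 were protein-coding. Leaving out any 1 eMZB library cut the calls to between 16 and 21. The spread was estimated over all 12 libraries, and a fit of the eMZB libraries alone gave 65 calls. At an unadjusted p under 0.05 there were 530 genes (5.39%), 311 higher (3.16%) and 219 lower (2.23%).

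**Figure D1:**
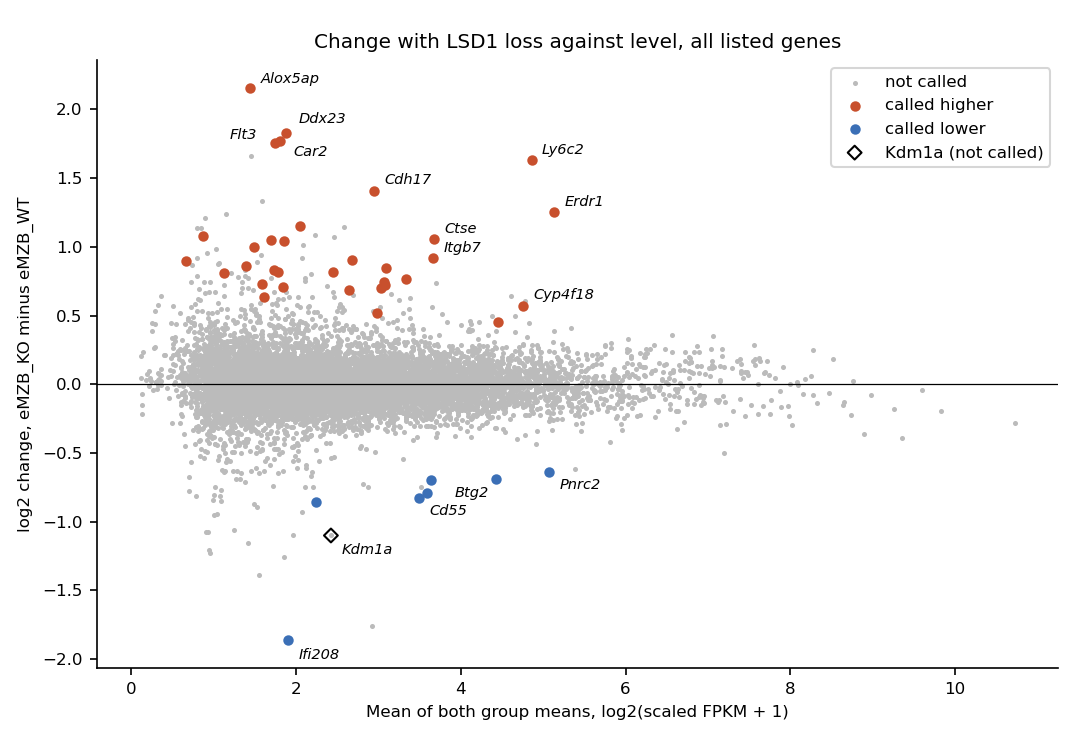
Change with LSD1 loss (vertical axis, log2 in eMZB_KO minus eMZB_WT) against the mean level of both groups (horizontal axis, log2(scaled FPKM + 1)) for all 9842 listed genes, with the 33 genes called higher in red, the 7 called lower in blue and Kdm1a as a diamond. Most of the called genes lie above 0, the highest being Alox5ap at 2.16, and Ifi208 at -1.86 is the lowest of those called.

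Promoter sequences from RefSeq (GRCm38.p6), 250 bases before to 50 after the annotated start, were matched for 17 of the 33 risen genes and all 7 that fell. The 4 risen genes with the largest changes among those with an entry and a mean of at least 4 scaled FPKM, and the gene with the largest fall, are shown because these are the stretches at which a factor that recruits LSD1 would be looked for. Each runs 5′ to 3′ on the strand of the gene: Flt3 at chr5:147400440-147400739 (minus strand), Ly6c2 at chr15:75111922-75112221 (minus), Zbtb32 at chr7:30598860-30599159 (minus), Ehd2 at chr7:15967486-15967785 (minus) and Ifi208 at chr1:173673415-173673714 (plus). Capitals mark matches to the motifs searched.
Flt3: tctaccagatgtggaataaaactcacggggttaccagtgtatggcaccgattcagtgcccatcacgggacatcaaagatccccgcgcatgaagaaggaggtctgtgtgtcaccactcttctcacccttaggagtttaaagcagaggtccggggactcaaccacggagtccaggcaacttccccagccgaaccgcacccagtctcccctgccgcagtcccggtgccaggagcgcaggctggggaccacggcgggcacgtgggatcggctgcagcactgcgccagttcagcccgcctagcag
Ly6c2: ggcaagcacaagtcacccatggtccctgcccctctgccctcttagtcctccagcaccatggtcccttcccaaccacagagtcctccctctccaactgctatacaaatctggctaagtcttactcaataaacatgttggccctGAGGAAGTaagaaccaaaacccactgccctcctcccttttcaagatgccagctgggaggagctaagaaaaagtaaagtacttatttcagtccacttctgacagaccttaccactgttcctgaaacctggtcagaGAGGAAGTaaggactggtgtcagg
Zbtb32: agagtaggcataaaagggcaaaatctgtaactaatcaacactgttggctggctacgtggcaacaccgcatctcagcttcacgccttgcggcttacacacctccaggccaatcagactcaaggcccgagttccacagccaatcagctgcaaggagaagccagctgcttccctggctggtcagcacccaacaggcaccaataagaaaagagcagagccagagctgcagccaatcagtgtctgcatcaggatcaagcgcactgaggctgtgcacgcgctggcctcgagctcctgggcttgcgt
Ehd2: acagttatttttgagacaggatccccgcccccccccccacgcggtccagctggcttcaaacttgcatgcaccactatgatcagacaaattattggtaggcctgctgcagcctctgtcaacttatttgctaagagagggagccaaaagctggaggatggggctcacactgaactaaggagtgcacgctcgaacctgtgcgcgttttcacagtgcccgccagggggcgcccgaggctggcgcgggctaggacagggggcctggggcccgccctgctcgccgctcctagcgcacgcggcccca
Ifi208: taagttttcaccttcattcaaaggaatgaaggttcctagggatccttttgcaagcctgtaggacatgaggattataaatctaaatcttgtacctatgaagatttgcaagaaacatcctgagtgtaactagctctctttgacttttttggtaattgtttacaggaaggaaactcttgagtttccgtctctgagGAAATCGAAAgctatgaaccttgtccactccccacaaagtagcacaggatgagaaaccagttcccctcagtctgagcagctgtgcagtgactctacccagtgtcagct

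Motifs were searched on both strands of these windows. The PU.1 motif GAGGAAGT, of a factor of myeloid and B cells, stood in 2 of 17 risen promoters (11.8%), those of Ly6c2, which holds it 2 times, and Itgb7, against 3.6% of the promoters of all listed genes. The motif of IRF factors and Blimp-1, which overlap in their letters, was present in the Ifi208 promoter alone among the 24 windows of called genes, against 3.4% of listed genes. The GFI1 core AAATCA was in 0 of 17 risen promoters, against 9.1% of listed genes, and the NF-kB motif in 0 against 0.4%. RBPJ letters GTGGGAA, of the DNA-binding partner of Notch, occurred before Csrp1 and Myo7a (11.8% of the risen) and Arf3, against 6.0%. A match is a description of the letters in the window, not a bound site.

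Genes of lipid mediators held the largest rise. Alox5ap (Entrez 11690), whose protein hands arachidonic acid to the lipoxygenase that starts leukotriene synthesis, measured 0.220, 0.315 and 0.321 scaled FPKM in eMZB_WT, from 3, 2 and 7 reads, and 5.45, 4.56 and 4.27 in eMZB_KO, from 101, 67 and 77 reads. It was close to absent in every wild-type library and clearly present in every knockout library, with a log2 change of 2.16 (SE 0.19; adjusted p = 7.39e-05). Mgst2, a membrane glutathione transferase that can join glutathione to a leukotriene, had 7.22, 5.03 and 4.06 in eMZB_WT and 10.2, 9.68 and 11.2 in eMZB_KO (log2 0.84, adjusted p = 0.0404). Cyp4f18, a cytochrome P450 that oxidises leukotrienes, went from 19.1, 22 and 22.1 to 33.9, 29.8 and 31.6 (log2 0.57, adjusted p = 0.0156). The wild-type libraries of Mgst2 spread widely and those of Cyp4f18 did not, and in neither did the groups meet. Pla2g7, which cleaves platelet-activating factor, rose by 1.0 on the log2 scale (SE 0.19; adjusted p = 0.0487), the weakest call of all. A list of leukotriene and platelet-activating factor genes, put together after these values were seen, had 8 listed members, of which 4 were the genes just named; since these led to the list, its count supports nothing. Ptafr, the receptor for platelet-activating factor, had 0.744 ± 0.270 and 1.71 ± 0.162 (adjusted p = 0.311), and Pla2g4a, which frees arachidonic acid from membranes, 1.26 and 1.94. The calls of Mgst2, Cyp4f18 and Pla2g7 were lost without eMZB_WT replicate 3 (adjusted p = 0.158, 0.0541 and 0.102 in limma), and that of Alox5ap was not (7.29e-04). Their loss was not particular to that library. Of the 6 fits that each left out 1 eMZB library, Mgst2 was called in 1, Cyp4f18 in 1, Pla2g7 in 0 and Alox5ap in 6.

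Receptors and adhesion molecules of the cell surface formed another group. Flt3 (Entrez 14255), the receptor tyrosine kinase of early progenitors and dendritic cells, had 1.06, 0.737 and 0.675 in eMZB_WT and 5.67, 4.52 and 5.27 in eMZB_KO. Every knockout library exceeded every wild-type library by over 4 times, and the log2 change was 1.76 (SE 0.13; adjusted p = 4.1e-05). Ly6c2, a lipid-anchored surface protein known from monocytes, measured 17.3, 20.5 and 9.64 in eMZB_WT and 48.1, 54.2 and 45.1 in eMZB_KO (log2 1.63, SE 0.22; adjusted p = 0.00571). Its wild-type value was lowest in replicate 3, farther from the knockouts than the others. Ly6c1, a near copy that may share its reads, had 2.70, 3.52 and 2.12 against 3.70, 4.35 and 4.09 (adjusted p = 0.909). Cdh17, a cadherin, went from 3.71, 3.52 and 3.96 to 11.4, 12.8 and 10.6 (log2 1.41, SE 0.11; adjusted p = 5.74e-05). Itgb7, the integrin chain that takes part in homing to the gut, showed the tightest replicates of the group, with 8.42, 8.06 and 8.15 in eMZB_WT and 16.4, 16.6 and 16.2 in eMZB_KO (log2 0.92; adjusted p = 0.00317). Scimp, an adaptor that works beside MHC class II molecules, measured 4.80, 3.19 and 3.12 and then 8.43, 7.39 and 7.31 (log2 0.90; adjusted p = 0.025). Ms4a6b, a membrane protein with close relatives in its family, had 4.78, 5.83 and 5.62 against 9.70, 9.51 and 9.03 (log2 0.70; adjusted p = 0.0144). Among the lower expressed, Ptprv rose by 1.05 and Ceacam16, an adhesion glycoprotein, by 0.83 on the log2 scale. Ptprv, of the receptor-type phosphatases, is annotated as a transcribed pseudogene and overlaps Ptpn7. Cd55, which shields cells from complement, fell from 13.5, 12.9 and 15.6 in eMZB_WT to 7.38, 8.79 and 6.29 in eMZB_KO (log2 -0.83, SE 0.13; adjusted p = 0.0116).

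Within the list of migration and adhesion genes, 26 were listed, 2 were called higher (Cdh17 and Itgb7) and 0 lower, and 7 had an unadjusted p under 0.05, all 7 higher. Over all 9842 genes 0.335% were called higher, and 3.16% were higher at an unadjusted p under 0.05. Of all changes 4798 were above 0 and 5044 below, the background for counts of sign in the lists below. Members of a list are not replicates of a condition. The median of the list was 0.15. Uncalled members included Cxcr4, the receptor for the chemokine CXCL12, with 8.21, 6.68 and 7.33 in eMZB_WT and 10.6, 11.8 and 13.6 in eMZB_KO (adjusted p = 0.13), and Icam1, a ligand of leukocyte integrins, with 7.10 ± 0.616 and 9.81 ± 1.22 (adjusted p = 0.187).

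Enzymes changed in both directions. Car2 (Entrez 12349), a carbonic anhydrase, had 0.979, 0.903 and 0.810 in eMZB_WT and 4.94, 5.49 and 6.00 in eMZB_KO, with a log2 change of 1.77 (SE 0.13; adjusted p = 4.1e-05). Ctse (Entrez 13034), the endosomal protease cathepsin E, had 8.33, 7.63 and 7.67 and then 17.7, 18 and 16.7 (log2 1.06, SE 0.09; adjusted p = 5.74e-05). In both genes the replicates of a group lay far closer together than the groups did. Gstt2, a glutathione transferase, measured 3.19, 3.29 and 2.81 in eMZB_WT and 7.0, 5.25 and 6.49 in eMZB_KO (log2 0.82; adjusted p = 0.00719), and St8sia6, a sialyltransferase, 3.49, 4.14 and 4.11 and then 6.45, 7.29 and 6.95 (log2 0.69; adjusted p = 0.035). Dhrs3, which reduces retinaldehyde, rose by 1.08 on the log2 scale from only 9, 3 and 13 reads in the wild-type libraries to 65, 54 and 74 reads. Eno1b rose by 0.82; it is a near copy of the glycolytic enzyme gene Eno1, which had 12.2 ± 0.539 and 14.3 ± 0.715 (adjusted p = 0.737), and reads may be split between them. Ide, the insulin-degrading enzyme, fell from 14.5, 15.0 and 15.2 to 8.70, 8.86 and 8.89 (log2 -0.69, SE 0.09; adjusted p = 0.00317). Rnpep, an aminopeptidase, fell from 4.98, 5.80 and 5.32 to 1.92, 2.48 and 3.23 (log2 -0.86; adjusted p = 0.0322), with the knockout libraries more spread than those of Ide.

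Regulators of transcription and RNA made up the next group. Ddx23 (Entrez 74351), whose helicase takes part in splicing, had 0.736, 0.957 and 1.15 in eMZB_WT and 6.62, 5.70 and 5.38 in eMZB_KO (log2 1.83, SE 0.15; adjusted p = 5.97e-05), a mean 6.22 times higher. Zbtb32, a transcriptional repressor of activated lymphocytes, measured 1.91, 2.17 and 1.26 and then 4.67, 4.90 and 5.86 (log2 1.15; adjusted p = 0.00477). Ifi208 (Entrez 100033459), of the interferon-inducible PYHIN family, had the largest fall, from 6.60, 6.65 and 5.17 to 1.02, 1.02 and 0.838 (log2 -1.86, SE 0.14; adjusted p = 4.1e-05). Every knockout library of Ifi208 was below every wild-type library by over 4 times, and members of its family may share reads. Btg2, which slows proliferation and takes part in messenger RNA deadenylation, fell from 25.3, 26.4 and 27.2 to 15.6, 15.5 and 16.9 (log2 -0.69; adjusted p = 0.00326). Pnrc2, a cofactor of messenger RNA decapping, fell from 40.2, 42.8 and 39.9 to 24.6, 24.8 and 28.6 (log2 -0.64; adjusted p = 0.0342). Both RNA decay factors were well expressed, with replicates close together in each group. The signal recognition particle genes Srp54a and Srp54b, near copies of each other that may share reads, rose together. Srp54a had 6.47, 6.92 and 6.89 against 11.8, 12.3 and 12.5 (log2 0.77), and Srp54b 5.19, 5.58 and 5.59 against 9.42, 9.52 and 10.5 (log2 0.74). Shfl, an interferon-induced inhibitor of viral translation that overlaps Angptl6, had 5.50, 5.62 and 5.70 and then 8.86, 8.59 and 7.93 (log2 0.52; adjusted p = 0.0417).

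Genes of membrane traffic, cytoskeleton and signalling were mostly of low level. Csrp1, a LIM-domain protein of the actin cytoskeleton, rose from 4.77, 5.94 and 6.00 to 10.1, 8.74 and 10.7 (log2 0.73; adjusted p = 0.00571). Arf3, a GTPase of the Golgi, fell from 14.5, 15.6 and 14.3 to 8.60, 7.48 and 8.25 (log2 -0.79; adjusted p = 0.025). Smaller levels, under 5 scaled FPKM in both groups, went with rises in Ehd2, an ATPase of caveolae (log2 1.04), Syt11, a synaptotagmin (0.86), Rapgef3, an exchange factor activated by cyclic AMP (0.81), Myo7a, an unconventional myosin (0.71), and Slc66a2, a membrane transporter (0.64). Erdr1, annotated as a transcribed pseudogene, stood out for its level, with 21.8, 24.7 and 18.7 in eMZB_WT and 50.1, 56.1 and 52.4 in eMZB_KO (log2 1.25, SE 0.20; adjusted p = 0.0144). The remaining calls were Prob1 (log2 0.90, from 10, 4 and 31 reads in eMZB_WT to 117, 115 and 104 reads), Fam177a (0.73) and the pseudogene Pisd-ps3, with 17.6, 17.1 and 18.5 against 25, 26.5 and 22.5 (0.45).

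**Figure D2:**
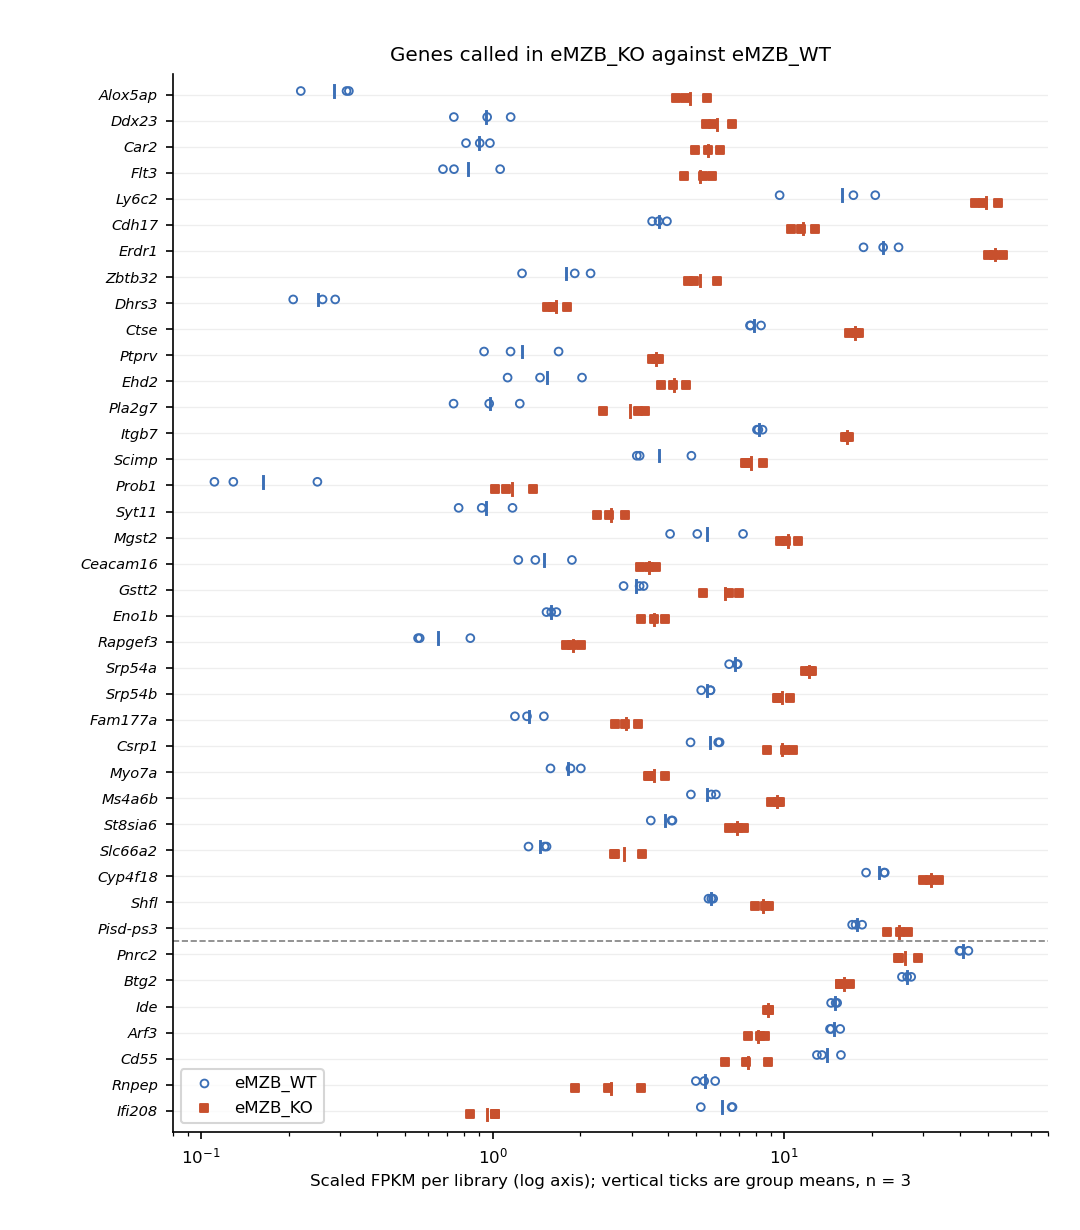
Scaled FPKM (log axis) of the 40 called genes in each of the 6 eMZB libraries, with open circles for eMZB_WT, filled squares for eMZB_KO and vertical ticks for group means (n = 3); the dashed line parts the 33 genes called higher from the 7 called lower. In all 40 genes the circles and squares do not overlap, and Alox5ap, Dhrs3 and Prob1 start from means of 0.286, 0.252 and 0.164.

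How firmly single genes were called varied. Leaving out each eMZB library in turn, 15 of the 40 genes were called in all 6 fits: Alox5ap, Flt3, Car2, Ddx23, Ly6c2, Cdh17, Zbtb32, Ctse, Itgb7, Csrp1, Srp54a, Srp54b, Ifi208, Btg2 and Ide. Another 12 were called in 1 to 5 of those fits and 13 in 0. Without eMZB_WT replicate 3 there were 16 calls, all among the 40: those 15 and Rapgef3. All 40 kept their direction in each setting tried. Calls lost without eMZB_WT replicate 3 include those of Cd55, Rnpep, Arf3 and Pnrc2 among the genes that fell. These were also lost without other eMZB libraries, being called in 2, 1, 0 and 0 of the 6 fits. Just inside the threshold stood Pla2g7, Pisd-ps3 and Shfl (adjusted p = 0.0487, 0.0445 and 0.0417). Just outside were Rogdi, D17H6S56E-5, AW112010 and Clec12a, all at 0.0514, and Sit1 at 0.0578.

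A further 30 genes had an adjusted p under 0.25 in limma, no overlap between the 6 libraries and a mean of at least 5 scaled FPKM in the higher group, 19 of them higher and 11 lower in eMZB_KO. Myc, the transcription factor of cell growth, had 15.7, 16.1 and 17.8 in eMZB_WT and 23.3, 21.5 and 26.4 in eMZB_KO (log2 0.49; adjusted p = 0.0617). Tyrobp, a signalling adaptor of myeloid and NK receptors, had 9.40, 8.33 and 9.35 and then 12.4, 17.7 and 17.6 (log2 0.74; adjusted p = 0.129). The noncoding gene AW112010 had 21.9, 21.6 and 20.1 and then 35.4, 33.1 and 29.8. All 3 were above the wild-type libraries in every knockout library without passing the threshold. Values in the same direction were found for Alpl, a phosphatase (log2 0.59), Csf2ra, a receptor chain for GM-CSF (0.64), Gsn, the actin-severing protein gelsolin (0.51), Fmnl3, a formin (0.56), Ube2l6, an enzyme of ISG15 conjugation (0.48), and Tgtp2, an interferon-induced GTPase with a near copy (0.66). On the lower side Gpx4, which repairs oxidised lipids, had 19.0, 19.3 and 18.2 in eMZB_WT and 13.9, 13.3 and 15.6 in eMZB_KO (log2 -0.38; adjusted p = 0.0963). Cpt1a, of fatty acid import into mitochondria, had 4.76, 5.64 and 6.03 and then 3.77, 3.07 and 3.54 (log2 -0.54; adjusted p = 0.187). Others were Rabgef1, an exchange factor of endosomes (-0.47), Ell3, an elongation factor (-0.37), Rogdi (-0.44), D17H6S56E-5 (-0.42) and 2010315B03Rik (-0.53).

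The markers of the sort and of B cell subsets were next compared. Cr2 (CD21) had 60.9, 64.9 and 70.7 in eMZB_WT and 63.9, 63.4 and 65.9 in eMZB_KO, and Ptprc (B220) 55.8 ± 0.646 and 56.4 ± 3.98. Cd1d1 (CD1d) had 22.8, 23 and 22.5 against 27.0, 31.0 and 25.4 (adjusted p = 0.622), and Cd93, the transitional marker, 0.873 ± 0.203 and 0.831 ± 0.158. Of 21 listed marginal zone genes, 0 were called, and 3 had an unadjusted p under 0.05, all higher. At that p 3.16% of all genes were higher. The median change of the list was -0.004, the same as that of all genes. Plac8, with 221 and 228, S1pr3, with 18.8 in both, and Notch2, with 13.9 and 13.8, are among the 21. Cells of both genotypes were sorted for B220, CD1d and CD21, so the sort itself favoured like levels of Ptprc, Cd1d1 and Cr2. Whether LSD1 loss alters marginal zone identity was not tested. Cd36, a scavenger receptor of marginal zone cells, had 15.0, 15.1 and 14.7 in eMZB_WT and 19.97, 22.1 and 20.2 in eMZB_KO (log2 0.45; adjusted p = 0.181).

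Follicular B cell genes held calls in both directions, Itgb7 higher and Cd55 lower, among 12 listed, with a median of -0.25. Of the 12, 5 had an unadjusted p under 0.05, 1 higher and 4 lower. Over all genes 0.406% were called and 5.39% had an unadjusted p under 0.05. Fcer2a (CD23), the low-affinity IgE receptor, had 32.9, 32.2 and 34.8 in eMZB_WT and 26.8, 25.6 and 25.8 in eMZB_KO (log2 -0.34; adjusted p = 0.219). Plasma cell genes had 0 of 11 called and a median of -0.19, and all 11 values were below 0. Jchain, the joining chain of secreted IgM, was the farthest, with 9.11, 12.6 and 14.5 in eMZB_WT and 0.658, 4.26 and 5.27 in eMZB_KO; the libraries did not overlap but spread so widely that the SE was 0.91 around a log2 change of -1.76. Prdm1, the gene of Blimp-1, had 1.45, 1.47 and 1.78 and then 0.973, 0.889 and 0.810 (log2 -0.44; adjusted p = 0.433), and Txndc5, a foldase of the secretory pathway, 26.4, 29.6 and 29.1 and then 20.7, 20.7 and 22.5. General B cell identity genes had 0 of 19 called, 16 of 19 below 0 and a median of -0.12, with Fcmr, the IgM receptor, at 288 ± 20.7 and 233 ± 3.47 and Cd79a at 468, 496 and 415 against 389, 402 and 385. Transitional and immature genes had 0 of 10 called, 3 with an unadjusted p under 0.05, all higher, and a median of 0.16.

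Markers of other cells were few. The macrophage and monocyte list had 5 of 18 genes listed, and its summed level was 35.2 to 42.2 in eMZB_WT and 69.3 to 77.3 in eMZB_KO; Ly6c2 made up most of that difference and was the only member called. Itgam (CD11b), used to exclude cells in the sort, had 0.180, 0.280 and 0.376 in eMZB_WT and 1.17, 1.25 and 0.991 in eMZB_KO (log2 0.74; adjusted p = 0.0793). Adgre1 (F4/80) had 0.521, 0.581 and 0.882 against 0.951, 0.520 and 0.890, Cd68 2.03 ± 0.375 against 2.75 ± 0.718, and Ctsd 20.01 ± 1.92 against 20.4 ± 5.47. Neutrophil markers had 0 of 10 genes listed, and the T, NK and erythroid lists 1 each: Lck with 6.55 and 8.16, Gzmb with 0.654 and 0.511, and Hbb-bs with 0.687 and 1.53. Dendritic cell and progenitor markers had 4 of 12 listed, with Flt3 called and Tcf4 at 8.39 ± 0.206 and 8.60 ± 0.174. Stromal markers, with 7 of 20 genes listed and 0 called, summed to 73.4 and 67.5 in replicate 3 of eMZB_WT and eMZB_KO and to between 18 and 27.5 in the other 4 libraries. Acta2, of smooth muscle, was high in eMZB_WT replicate 3 alone, with 1.24, 1.62 and 14.7 in eMZB_WT and 1.54, 1.70 and 1.84 in eMZB_KO. Tagln, another smooth muscle gene, was 4.28 in that library and between 0.868 and 1.67 in the other 5. The part of other cells in the values of Ly6c2, Flt3 and Itgam was not tested.

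Of 21 cytokine receptors listed, 1 was called (Flt3), and 10 had an unadjusted p under 0.05, 5 higher and 5 lower. The shares over all genes were 0.406% called and 5.39% with an unadjusted p under 0.05. On the higher side stood Il2ra, a chain of the interleukin receptor of activated lymphocytes, with 0.850, 1.19 and 0.930 in eMZB_WT and 2.52, 1.82 and 2.39 in eMZB_KO (log2 0.70; adjusted p = 0.126), Csf2ra with 3.15, 3.86 and 3.26 and then 6.4, 5.76 and 5.45, and Csf2rb with 3.76 ± 0.355 and 5.47 ± 0.347. Below the wild type were Il4ra, with 13.8 ± 0.591 and 10.6 ± 0.565 (adjusted p = 0.429), Tgfbr1, with 3.88 ± 0.337 and 2.84 ± 0.201, and Il9r, with 16.4 ± 1.59 and 12.4 ± 0.709. The median of the list was 0.04, close to that of all genes.

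In the MYC and ribosome biogenesis list 0 of 27 were called, 8 had an unadjusted p under 0.05, and the median was 0.23. All 27 changes were above 0, against 4798 of all 9842. Shares over all genes, for the counts of this paragraph, were 0.406% called and 5.39% with an unadjusted p under 0.05. At that p 3.16% of all genes were higher. Besides Myc, the nucleolar proteins Npm1 and Ncl had 61.3, 58.8 and 58.4 against 73.1, 72.9 and 67.1, and 18.7, 17.1 and 19.4 against 22.6, 20.8 and 24. Cytosolic ribosomal protein genes had 0 of 52 called, 49 above 0, 1 with an unadjusted p under 0.05 and a median of 0.13. Their summed level overlapped between groups, at 5828 to 6576 in eMZB_WT and 6388 to 7054 in eMZB_KO. DNA replication genes had 0 of 36 called, 30 above 0, 3 with an unadjusted p under 0.05 and a median of 0.15. Among them the helicase subunit Mcm3 had 13.5 ± 1.27 and 16.7 ± 1.45. Cholesterol synthesis genes had 0 of 21 called and a median of 0.17. Glycolysis genes had 1 of 18 called (Eno1b), 6 with an unadjusted p under 0.05, all higher, and a median of 0.15; Gapdh had 83.8, 87.4 and 88.0 and then 106, 101 and 98.4, and the glucose transporter gene Slc2a3 2.80, 2.61 and 2.62 and then 4.15, 3.86 and 4.05. Mitosis genes had 0 of 24 called, 0 with an unadjusted p under 0.05 and a median of -0.03.

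Of 16 MHC class II genes listed, 0 were called, 15 changes were below 0, 6 had an unadjusted p under 0.05 and the median was -0.17. Among all genes 0.406% were called, 5.39% had an unadjusted p under 0.05, and 2.23% were lower at that p. The chains H2-Ab1, with 752, 849 and 661 in eMZB_WT and 571, 574 and 569 in eMZB_KO, and H2-Aa, with 531, 600 and 484 and then 420, 431 and 402, did not overlap between groups, nor did Ciita, the coactivator that switches these genes on, with 18.4, 17.2 and 18.4 and then 14.7, 14 and 13.4 (log2 -0.34; adjusted p = 0.516). Groups without overlap were found in 18.4% of all genes. MHC class I genes had 0 of 16 called and a median of -0.01.

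The other lists held few calls. Quiescence genes had 2 of 20 called, Btg2 and Pnrc2, both lower; interferon response genes had 1 of 35, Ifi208, with a median of -0.07 and members on both sides, such as Gbp2, a guanylate-binding protein, with 4.03 ± 0.450 and 5.58 ± 0.180. Activation genes had 1 of 18 called, Zbtb32, and a median of 0.18, with Cd86, a costimulatory ligand, at 5.13, 6.10 and 4.91 and then 8.80, 7.58 and 8.24 (adjusted p = 0.574) and Egr3, an early response factor, at 6.76, 6.72 and 7.05 and then 5.05, 5.24 and 5.08 (adjusted p = 0.376). In the Notch pathway, which the culture stimulates through DL1, 0 of 22 were called and the median was 0.03. Its target Dtx1 had 37.0 and 41.3 and Hes1 7.33 and 7.37, while the glycosyltransferase gene Lfng had 2.27 ± 0.150 and 3.54 ± 0.474 (adjusted p = 0.733). NF-kB genes had 0 of 29 called (median -0.05), B cell receptor signalling genes 0 of 28 (-0.04), BCL2 family genes 0 of 14 (0.01), Toll-like receptor genes 0 of 20 (-0.03), oxidative phosphorylation genes 0 of 35 (0.04) and unfolded protein response genes 0 of 19 (-0.02). Read against the 0.406% of all genes called, the lists with 0 called are not set apart by that count.

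**Figure D3:**
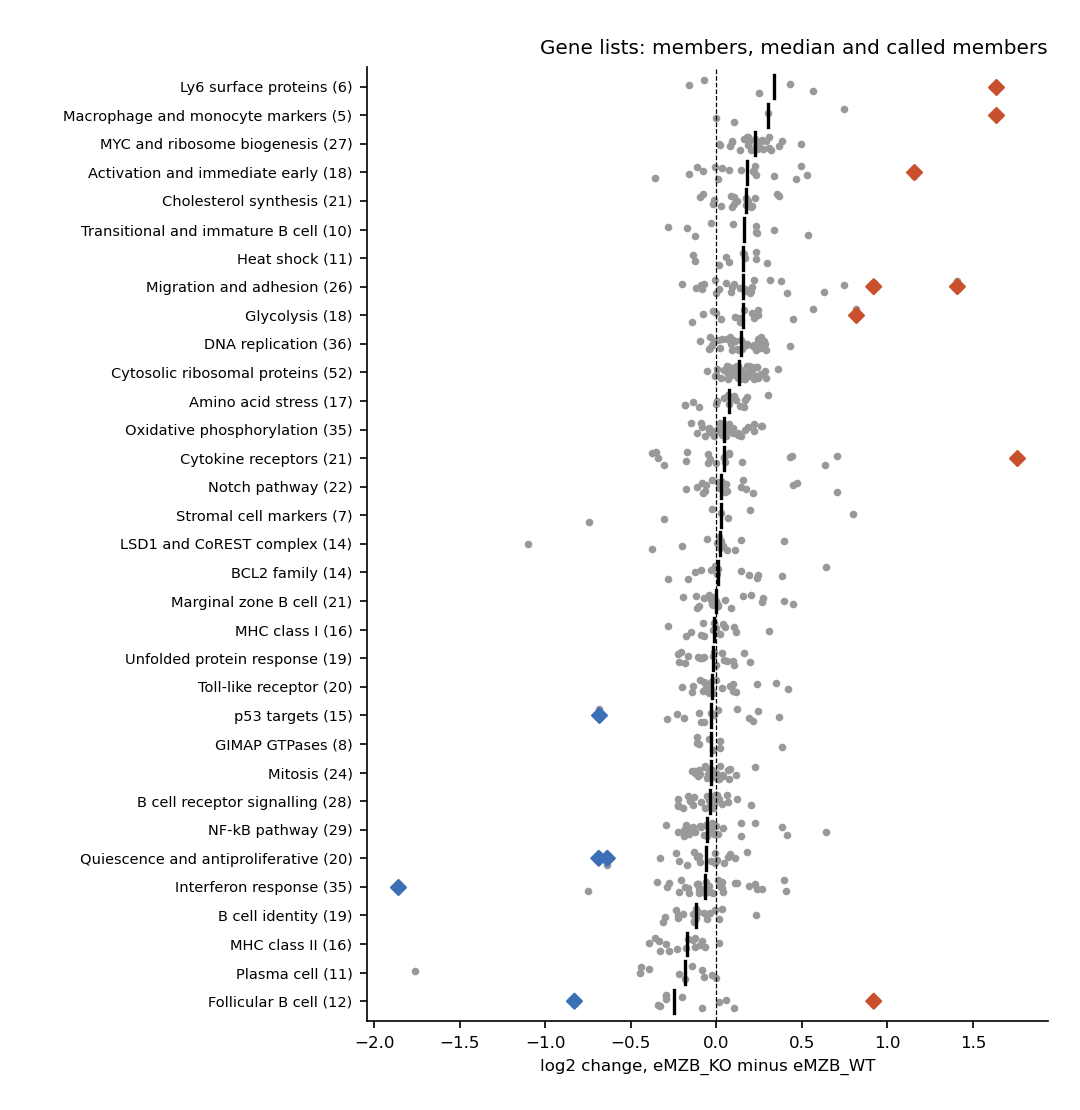
Log2 change in eMZB_KO minus eMZB_WT (horizontal axis) of each listed member (grey points) of the gene lists with at least 5 listed members, with the list median (black bar), called members (red diamonds higher, blue lower), the number listed in brackets and the median of all genes as a dashed line. The MYC and ribosome biogenesis list lies to the right of 0 with all 27 members, and the plasma cell list to the left with all 11.

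Some of the called genes lay near each other. Of 275 windows of 10 Mb that hold listed genes (mm10), 246 held 0 called genes, 24 held 1, 2 held 2 and 3 held 3 or more; this division was chosen after the values were seen. The window from 130 to 140 Mb of chromosome 1 held 6 of its 53 listed genes (11.3%): Cd55, Btg2 and Rnpep fell and Ctse, Ptprv and Csrp1 rose. Between 50 and 60 Mb of chromosome 12 were 3 of 31 (9.68%), Srp54a, Fam177a and Srp54b, which lie within 0.0746 Mb of each other and all rose. Since Srp54a and Srp54b may share reads, they may not be separate calls. Chromosome 15 from 90 to 100 Mb held 3 of 49 (6.12%), Rapgef3 and Ddx23, which rose, and Arf3, which fell and starts 0.0922 Mb from Ddx23. Itgb7 lies farther along chromosome 15, 3.57 Mb from Ddx23. Together these 3 windows, picked for their calls, held 12 of the 40 calls and 133 of the 9833 genes with a position. The medians of all listed genes in the 3 windows were -0.01, 0.01 and 0.03. Of 49 genes called in the transitional cells, 11 lay in the same 3 windows. All but Endou and Fmnl3 of them were genes called in eMZB too, which had picked the windows, so the count is no separate support. Pnrc2 starts 0.68 Mb from Kdm1a on chromosome 4. 

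**Figure D4:**
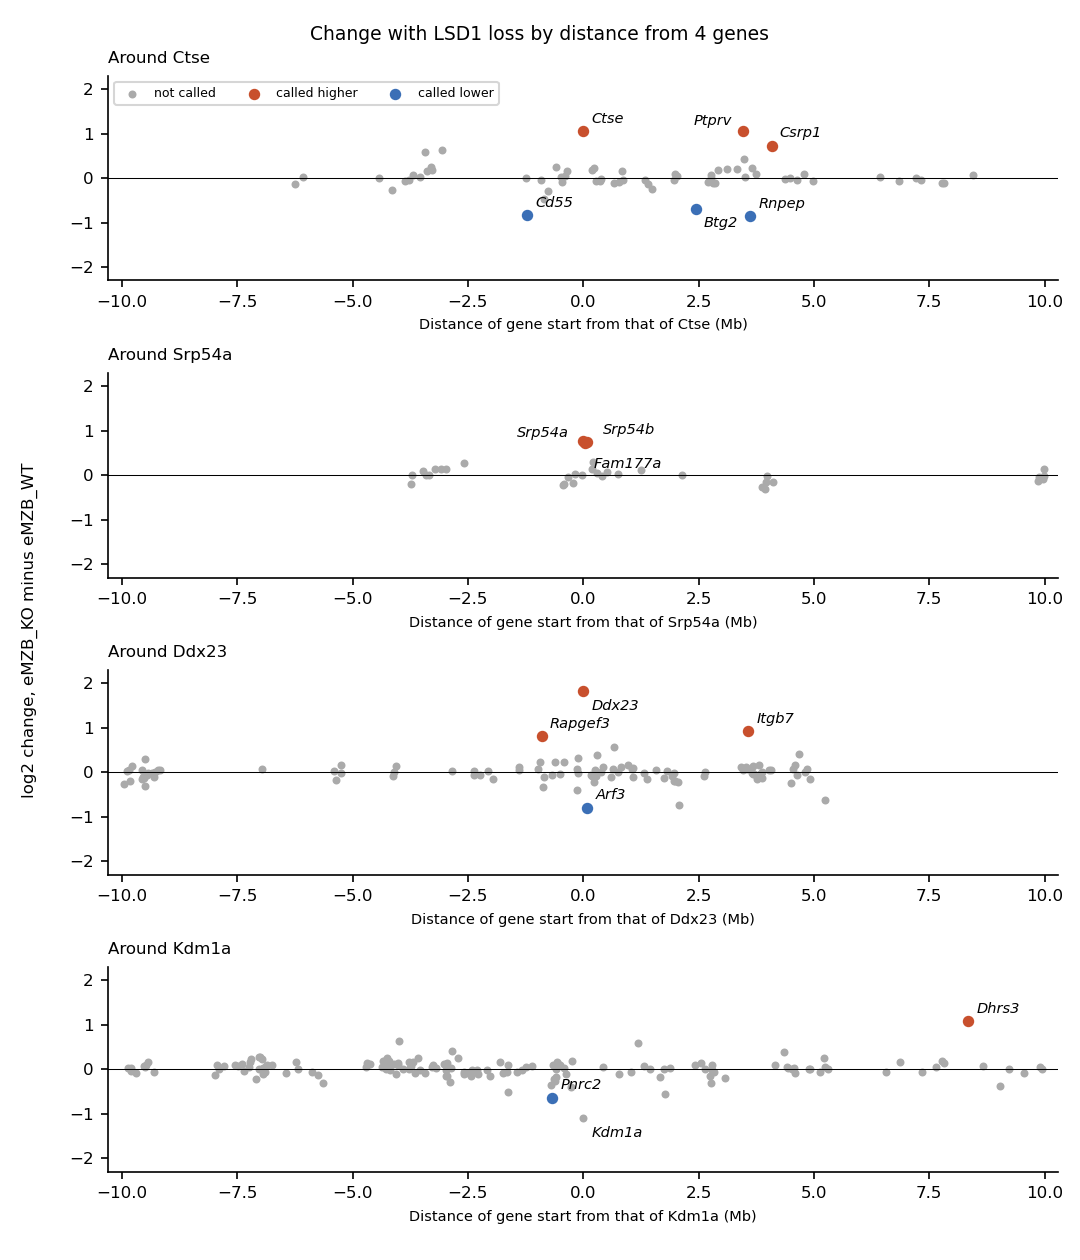
Log2 change in eMZB_KO minus eMZB_WT (vertical axis) of listed genes by the distance of their start from that of Ctse, Srp54a, Ddx23 or Kdm1a in Mb (horizontal axes), with genes called higher in red, called lower in blue and others in grey. Around Ctse called genes go both ways within about 5 Mb, while most uncalled neighbours lie close to 0.

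The response of the cultured cells was last set beside that of transitional cells, the cells they were made from, using TrB_KO and TrB_WT in the same fit. There 49 genes were called (0.498%), and 17 genes were called in both, which is 42.5% of the calls in eMZB and 34.7% of those in TrB. All 17 changed in the same direction in both. Of the 40 genes called in eMZB, 36 (90.0%) had the same sign of change in TrB, against 51.6% of all genes. Kdm1a was 2.97 ± 0.392 in TrB_KO and 6.65 ± 2.77 in TrB_WT, where replicate 3 was again the low library. The difference of the 2 responses was called for 1 gene (0.0102%), Flt3. It had 0.777 ± 0.0764 in TrB_WT and 0.433 ± 0.0339 in TrB_KO, a log2 change of -0.31 (adjusted p = 0.45), against 1.76 in eMZB, and the difference was 2.06 (SE 0.19; adjusted p = 9.08e-04). Flt3 was thus low in transitional cells of both genotypes and in eMZB_WT, and higher only in eMZB_KO of the 4 groups.

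Values for other genes, none of which passed that test of the difference, are given side by side. Car2 had 1.65 ± 0.478 in TrB_WT and 2.79 ± 0.171 in TrB_KO (log2 0.53) against 1.77 in eMZB, a difference of 1.24 (adjusted p = 0.0812). Slc66a2 went the other way in size, from 1.55 ± 0.160 to 6.95 ± 0.896 in TrB (log2 1.64) against 0.64 in eMZB (difference -1.0; adjusted p = 0.0812). Cdh17 had 2.0 and 3.20 scaled FPKM in TrB_WT and TrB_KO without a call (log2 0.49; difference 0.92, adjusted p = 0.119). Zbtb32, at 0.731 and 1.07, and Pla2g7, at 0.689 and 0.427, were low in TrB of both genotypes. Changes of like size in both cell types were measured for Ddx23 (1.67 in TrB), Ctse (1.0), Itgb7 (1.12), Ptprv (1.23), Srp54a (1.03) and Ifi208 (-1.40). Ly6c2 reached 51.7 ± 7.30 in TrB_KO from 7.80 ± 1.75, close to its 49.1 ± 4.60 in eMZB_KO. Ly6a, its neighbour of the same family, rose in TrB by 1.48 on the log2 scale (adjusted p = 7.45e-04), while in eMZB it had 277, 334 and 241 in wild type and 326, 369 and 311 in knockout (log2 0.25). The plasma cell and MHC class II lists, below 0 in eMZB, had medians of 0.22 and 0.04 in TrB; the difference of these medians was not tested.

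**Figure D5:**
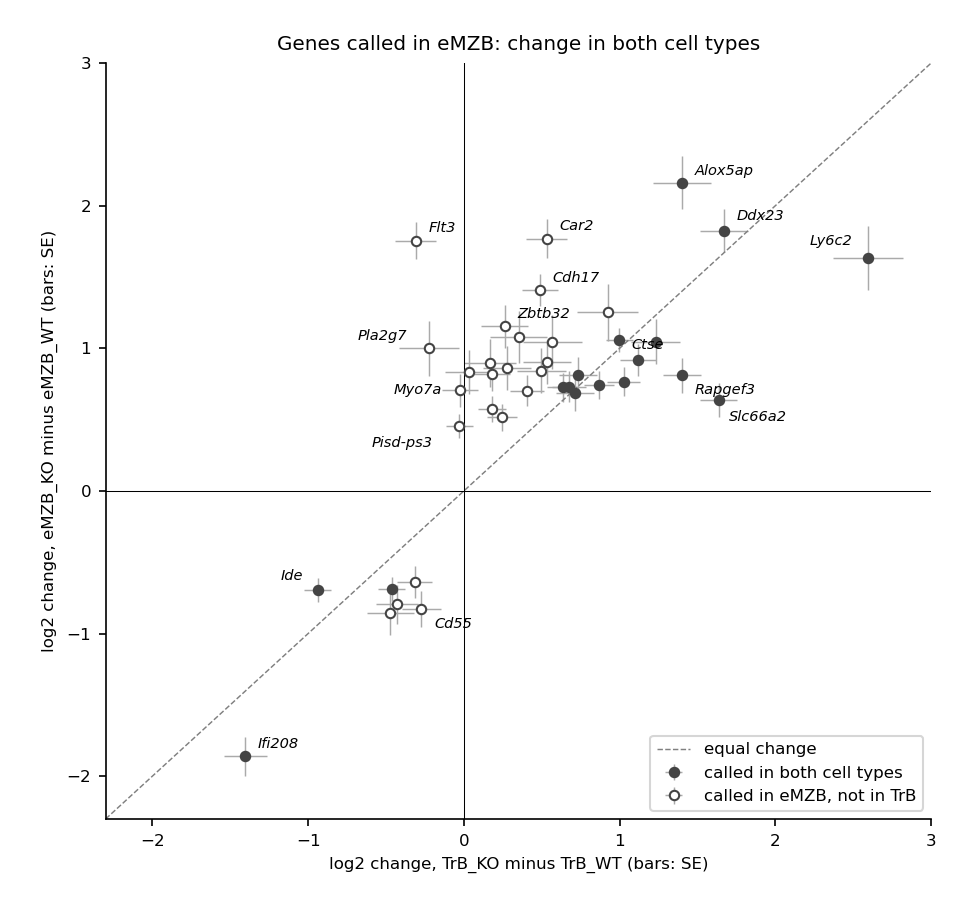
Log2 change with LSD1 loss in eMZB (vertical axis) against that in TrB (horizontal axis) for the 40 genes called in eMZB, with SE bars; filled points are the 17 genes called in both cell types, and the dashed line marks equal change. Flt3 stands alone at 1.76 in eMZB and -0.31 in TrB, and Ly6c2, Slc66a2 and Rapgef3 are among the points below the line.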

How the data were processed

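RNA of sorted cells was amplified with SMART-Seq v4 and made into libraries with Nextera XT, per the labels' protocols, a kit that does not mark strand. The authors deposited 1 table of FPKM for 12 libraries and 9842 genes, each reaching 1 FPKM in at least 3 libraries; STAR and mm10 are named in the submitters' processing notes, and no source used here gives their versions. Each library was divided by a median-of-ratios factor, and log2(scaled FPKM + 1) was fitted in limma 3.58.1 (R 4.3.3) with 4 group means over all 12 libraries, 8 residual degrees of freedom, a mean trend and Benjamini-Hochberg adjustment over 9842 genes; adjusted p-values in the text come from limma. Counts were recovered from the steps of the FPKM (all 9842 genes within 0.02 reads of whole numbers) for depth and a voom alternative. Groups came from the labels. Named genes were Kdm1a, the sort markers, all called genes, the 10 higher and 10 lower uncalled genes of largest change with adjusted p under 0.25, no overlap and a mean of at least 5, and called or lowest-p members of 38 gene lists; Ly6c1, Eno1, Ly6a and members quoted for context beyond that were chosen after their values were seen. The members and lists were chosen with earlier results of these data known. Of 9842 gene IDs, 9833 matched the RefSeq table (GRCm38.p6), and 7831 had a promoter sequence; Ly6c2 and Zbtb32 have 2 promoter entries, of which the first was used. The fit was tested on simulated data.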

Additional observations from a re-analysis of the deposited data

Results flagged for a closer look

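Flt3 responded differently to LSD1 loss in the cultured and in the transitional cells. The interaction of cell type and genotype in the limma fit was 2.06 on the log2 scale (SE 0.19; adjusted p = 9.08e-04), from a change of 1.76 in eMZB, where every eMZB_KO library exceeded every eMZB_WT library, and of -0.31 in TrB.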

How the results depend on the processing

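Against 40 calls (33 higher, 7 lower), FPKM as deposited gave 15 (11 and 4), of which 8 were among the 40, a mean of at least 5 FPKM 23 (16 higher), and the eMZB libraries alone 65 (52 and 13), with 39 of the 40. Factors from the eMZB libraries alone and voom on recovered counts each gave 11 lower calls. Leaving out 1 library at a time gave 16 to 52 calls, 12 to 41 higher and 3 to 11 lower; the lowest counts came without eMZB_KO replicates 1 or 3 or eMZB_WT replicate 3. Without both wild-type libraries of low Kdm1a, a setting chosen after seeing the data, there were 23 (17 higher), 20 of them among the 40. With the replicate block 46 genes were called and 29 of the 40 kept; equal replicate numbers correlated at -0.0071, 0.2625 and 0.1284, 2 of 3 above 0.1, and not every library correlated best with its own number; the labels name no shared batch, and whether the numbers mark one was not tested. The cause of these differences was not tested.

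The difference of the responses was called for 15 genes as deposited, 6 with a pseudocount of 5, 2 without both low-Kdm1a libraries and 1 to 5 with 1 library left out (5 without TrB_WT replicate 3). Among genes with a mean of at least 5 FPKM, which leaves out Flt3, limma called 0, with 334 at an unadjusted p under 0.05, and voom over all genes called 1. Kdm1a passed the threshold with factors from the eMZB libraries alone (-1.14, adjusted p = 0.0298), in the eMZB libraries alone (-1.10, 0.0301), without TrB_WT replicate 3 (-1.10, 0.0113) and without both low-Kdm1a libraries (-1.33, 5.27e-04), and ranged from -1.33 to -0.94 with 1 library left out.

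No called gene changed direction. Of the uncalled genes named, 11 changed sign in some setting, most of them with log2 changes near 0. Gzmb, at -0.14 with an SE of 0.37, rested on 2 to 27 reads in the eMZB libraries. As deposited the values were Cd93 0.0075, Cr2 0.0488, Ctsd 0.0686, Notch2 0.0396 and S1pr3 0.0651. Other scalings, pseudocount 5 and voom gave Ctsd 0.0016, 0.0072 and 0.0018, S1pr3 0.0048 and Cd93 0.0113. Without both low-Kdm1a libraries they were Cr2 0.0331, Ctsd 0.072, Hes1 -0.1354, Notch2 0.0192, Plac8 -0.0361 and S1pr3 0.0685. With 1 library left out at a time the ranges were -0.1008 to 0.0531 for Cd93, -0.0722 to 0.0331 for Cr2, -0.2028 to 0.1139 for Ctsd, -0.4095 to 0.1024 for Gzmb, -0.1354 to 0.0966 for Hes1, -0.1231 to 0.1372 for Notch2, -0.0361 to 0.0953 for Plac8, -0.0402 to 0.0563 for Ptprc and -0.0814 to 0.0716 for S1pr3. Acta2 (-0.75) and Tagln (-0.31), high in eMZB_WT replicate 3, ranged from -1.2531 to 0.1496 and from -0.5932 to 0.1558 with 1 library left out, and were 0.1496 and 0.1558 without both low-Kdm1a libraries. Values of low genes rest on few reads, as few as 2 in a wild-type library for Alox5ap.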
